A study of Mus musculus with 2 samples.

Results

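The complement genes described here were C1qa, C1qb, C1qc, C2, C3, Cfb, Cfp, C3ar1 and C5ar1, which encode components and receptors of the complement system. These 9 genes were chosen by symbol among the 27998 genes of the deposited tables, and all 9 had counts in both libraries. RNA of single cells was counted in CD45+ leukocytes that had been sorted from subcutaneous MC38-GFP tumours in C57BL/6 mice. MC38 is a colon adenocarcinoma line of the mouse, here marked with green fluorescent protein. Every mouse had received 50000 tumour cells and anti-PD-1 antibody, which blocks an inhibitory receptor of T cells, at 100 ug on days 12, 15, 18 and 22. The labels gave all of this for both groups and told them apart by response alone, with no untreated group. There was 1 library of the responder group and 1 of the non-responder group, and neither the number nor the age of the mice behind a library was given. Each difference below therefore separates these 2 libraries and has no replicate check, and every interval in brackets covers counting error only, at the 95% level.

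Complement is a protein cascade that tags surfaces for removal by phagocytes and releases small inflammatory peptides. C1q, built of the C1qa, C1qb and C1qc chains, recognises immune complexes and dying cells and starts the classical pathway, in which C2 supplies the protease that cleaves C3. Factor B (Cfb) supplies the protease of the alternative pathway, properdin (Cfp) stabilises it, and C3ar1 and C5ar1 are the receptors of the peptides C3a and C5a. Tissue macrophages are a well-known source of C1q, whereas the liver makes many of the components found in plasma.

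All 9 genes lie on the minus strand of GRCm38. C1qb (chromosome 4, 136880129 to 136886187), C1qc (136889804 to 136893065) and C1qa (136895917 to 136898803) stand side by side, with 3616 bases between C1qb and C1qc and 2851 between C1qc and C1qa. Cfb (chromosome 17, 34856374 to 34862518) and C2 (34862604 to 34898265) are also neighbours, 85 bases apart. C3 lies farther along the same chromosome (57203970 to 57228136). Cfp lies on chromosome X (20925454 to 20931555), C3ar1 on chromosome 6 (122847138 to 122856161) and C5ar1 on chromosome 7 (16246743 to 16259540).

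Promoter windows of 300 bases, from RefSeq on GRCm38.p6, were matched for 6 of the 9 genes. The windows of C1qb and C1qc are shown because these genes varied together from cell to cell, and that of C3 because it differed most between the libraries. Capitals mark the matches to the motifs searched, and each line reads 5′ to 3′ toward the gene. The windows are chr4:136886151-136886450, chr4:136892865-136893164 and chr17:57228087-57228386, all on the minus strand.
C1qb: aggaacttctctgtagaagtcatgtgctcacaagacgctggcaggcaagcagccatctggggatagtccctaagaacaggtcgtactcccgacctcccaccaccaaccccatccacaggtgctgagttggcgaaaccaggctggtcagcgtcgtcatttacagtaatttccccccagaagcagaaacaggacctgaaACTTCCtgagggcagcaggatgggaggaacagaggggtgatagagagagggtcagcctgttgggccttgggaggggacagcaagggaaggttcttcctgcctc
C1qc: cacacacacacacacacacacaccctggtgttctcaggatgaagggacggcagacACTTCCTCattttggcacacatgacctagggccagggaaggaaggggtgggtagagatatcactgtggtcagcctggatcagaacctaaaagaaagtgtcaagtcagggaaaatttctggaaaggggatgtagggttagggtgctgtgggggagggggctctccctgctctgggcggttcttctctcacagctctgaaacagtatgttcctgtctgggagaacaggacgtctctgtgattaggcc
C3: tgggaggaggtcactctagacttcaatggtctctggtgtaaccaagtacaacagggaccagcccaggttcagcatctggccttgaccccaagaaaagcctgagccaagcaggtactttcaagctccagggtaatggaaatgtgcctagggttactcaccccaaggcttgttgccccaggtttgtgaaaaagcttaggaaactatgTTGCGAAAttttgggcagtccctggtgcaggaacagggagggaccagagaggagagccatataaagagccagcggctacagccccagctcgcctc
The motifs, searched on both strands, were those of PU.1 (GAGGAAGT), the ETS family (GGAAGT, which the PU.1 motif contains), MAF (TGCTGAC), GAS (TTCNNNGAA), ISRE (GAAA, any 2 bases, then GAAA), C/EBP (TTGCNNAA) and AP-1 (TGANTCA). The C1qb window held 1 ETS match and the C1qc window 1 PU.1 match, both on the opposite strand. C3 held 1 C/EBP match. Among the windows not printed, C3ar1 held 1 AP-1 match and C5ar1 2 ETS matches, and Cfp held none of the 7 motifs. Of 32851 promoter windows of the same length, 23.8% held the ETS motif, 3.20% the PU.1 motif, 10.8% the C/EBP motif and 7.81% the AP-1 motif. The shares were 8.30% for GAS, 3.44% for ISRE and 4.67% for MAF, none of which matched in the 6 windows. A match describes letters and not a bound site.

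After filtering, 2565 cells of the non-responder library, with a median of 11752 UMIs (unique molecular identifiers, one per captured molecule), and 4376 of the responder library, with a median of 10043, were kept. Cells were clustered without the complement genes and named from marker lists. Macrophage-like cells, a class that includes monocytes, made up 2356 (91.9% [90.7-92.9]) and 4149 (94.8% [94.1-95.5]) of them. All 12 macrophage markers had counts in this class in both libraries, as they also had in dendritic-like cells. Each macrophage-like cluster reached the naming limit for 10 or 11 of the 12. The libraries shared 14 cell barcodes. Most macrophage-like clusters came largely from 1 library, such as cluster 1 with 935 non-responder and 18 responder cells, so a cluster's features and its library's cannot be told apart there. Only clusters 0, 3, 4, 5 and 11 had at least 20 cells of each.

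Across cell classes, Cfp was highest in dendritic-like cells, and C2 had too few counts to be ranked. The other genes were highest in macrophage-like cells or in droplets that also held T cell markers. Levels are given as CPM, in which the counts summed over a class or cluster are scaled to a common total. In this 3' assay each molecule is counted once, so CPM was not divided by gene length.

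**Figure D1:**
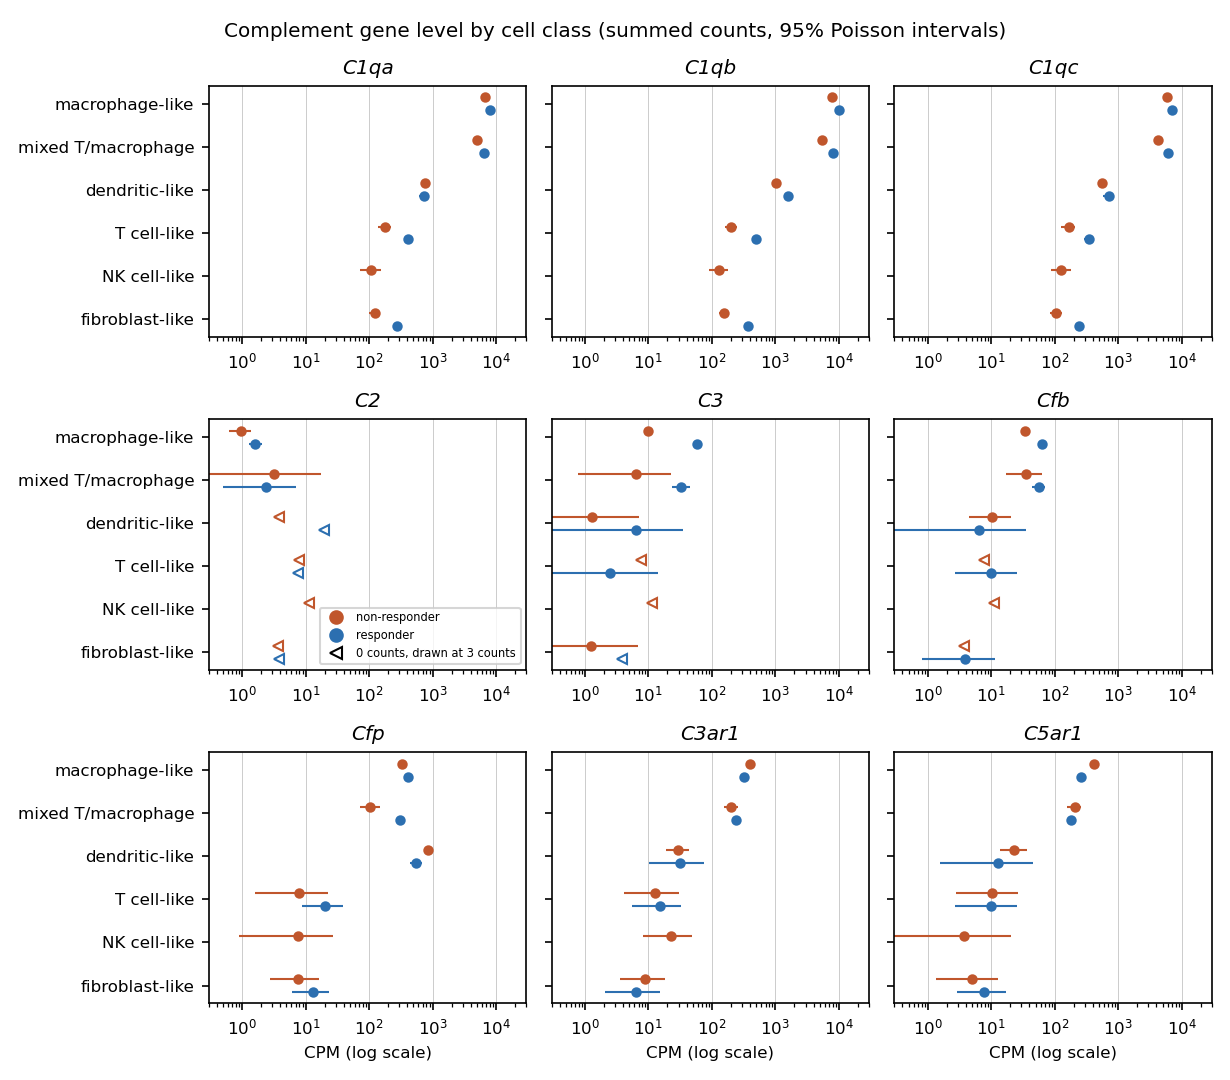
CPM (log scale) of each complement gene in each cell class, with 95% Poisson intervals; orange is the non-responder and blue the responder library, and NK cell-like cells of the responder library (4 cells) are not drawn. C1qa, C1qb and C1qc drop from the macrophage-like to the T cell-like class, while Cfp is highest in dendritic-like cells at 840 and 545 CPM.

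T cell-like cells, which are not a known source of C1q, held C1qb at 201 CPM [159-251] in the non-responder library and 498 [431-572] in the responder library. These levels were 2.56% and 4.97% of those in macrophage-like cells, and the C1qa and C1qc levels were between 2.62% and 5.13%. The 12 macrophage markers had medians of 2.83% and 6.88% of their macrophage-like levels, with ranges of 0 to 12.3% and 3.80% to 23.4%. With each cell thinned to 3000 UMIs, C1qb had a UMI in 29.2% of 65 and 67.1% of 76 T cell-like cells (56.9% and 76.9% unthinned), so a C1q UMI in a single cell did not mark a macrophage. C1qb in fibroblast-like cells was at 1.96% and 3.70% of the macrophage-like level. The source of the C1q RNA in these classes was not tested.

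Dendritic-like cells, led by Ccl17, Mgl2 and Ccl22, were the exception among the other classes. They held Cfp at 840 CPM [777-907] in the non-responder library, 255% [236-275] of the macrophage-like level. In the responder library they held it at 545 CPM [435-673], 131% [105-162] of that level. Within the macrophage-like class, cluster 0 held Cfp at 543 CPM [504-584] in the non-responder and 1039 CPM [915-1175] in the responder library. The responder value of cluster 0 was above the dendritic-like level of that library. With cells thinned to 3000 UMIs, Cfp was seen in 72.3% of 83 and 73.7% of 19 dendritic-like cells, against 50.4% and 62.4% of macrophage-like cells and 1.54% and 2.63% of T cell-like cells. Unthinned, the shares in dendritic-like cells were 89.2% and 71.4%, in macrophage-like cells 80.3% and 87.8%, and in T cell-like cells 4.62% and 7.69%. The C1q chains were low in dendritic-like cells, at 9.66% to 12.9% of the macrophage-like level in the non-responder and 9.18% to 15.8% in the responder library. C3ar1, at 7.34% and 10.1%, and C5ar1, at 5.48% and 5.01%, were also low there. The 12 macrophage markers had medians of 16.7% and 27.0% in this class, with ranges of 2.33% to 36.4% and 2.66% to 749%, the last for Mrc1, and summed to 3367 and 8356 CPM. All 10 dendritic markers had counts in the non-responder cells and summed to 1078 CPM. In the 21 responder cells they summed to 609 CPM, and Zbtb46, Xcr1, Fscn1 and Cacnb3 were at 0. The proportions of the C1q chains in this class are given with those of the clusters.

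C1q was among the most abundant products of the macrophage-like cells. C1qb, the B chain, was counted at 7858 CPM in the non-responder and 10012 CPM in the responder library, where it ranked 9th and 10th of all genes by UMI count. C1qa stood at 6799 and 8096 CPM and C1qc at 5775 and 6987 CPM. The 3 chains together took 2.04% and 2.51% of all UMIs of the class. The log2 ratio, responder over non-responder, was 0.35 [0.34-0.36] for C1qb, 0.25 [0.24-0.26] for C1qa and 0.27 [0.27-0.28] for C1qc. In cells thinned to 3000 UMIs the median was 63 C1q UMIs in the non-responder and 78 in the responder library, and the middle 90% of cells ran from 3 to 101 and from 22 to 112.

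C1q was uneven across the macrophage-like clusters. C1qb was lowest in cluster 0 of the non-responder library, at 2118 CPM, and stood at 4441 CPM in cluster 4 and 5910 CPM in cluster 5 of that library. Cluster 0 was led by Retnla, S100a8 and Cxcl3, cluster 4 by Ly6i, Ifitm1 and Ly6c2, and cluster 5 by Mmp12, Pmp22 and Hmox1. The other 5 non-responder clusters held C1qb at 7799 to 9124 CPM. In the responder library the same clusters 0, 4 and 5 were low, at 5943, 6872 and 6538 CPM, and the other 5 held 9982 to 11099 CPM. Cluster 9, led by the interferon-induced genes Ifit3 and Oasl1, was the highest. The C1qb fold from the highest to the lowest cluster was 4.31 in the non-responder and 1.87 in the responder library. The median fold over all genes of at least 50 CPM (2218 and 2143 genes) was 2.05 and 1.96. These genes were not matched to C1qb in level.

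**Figure D2:**
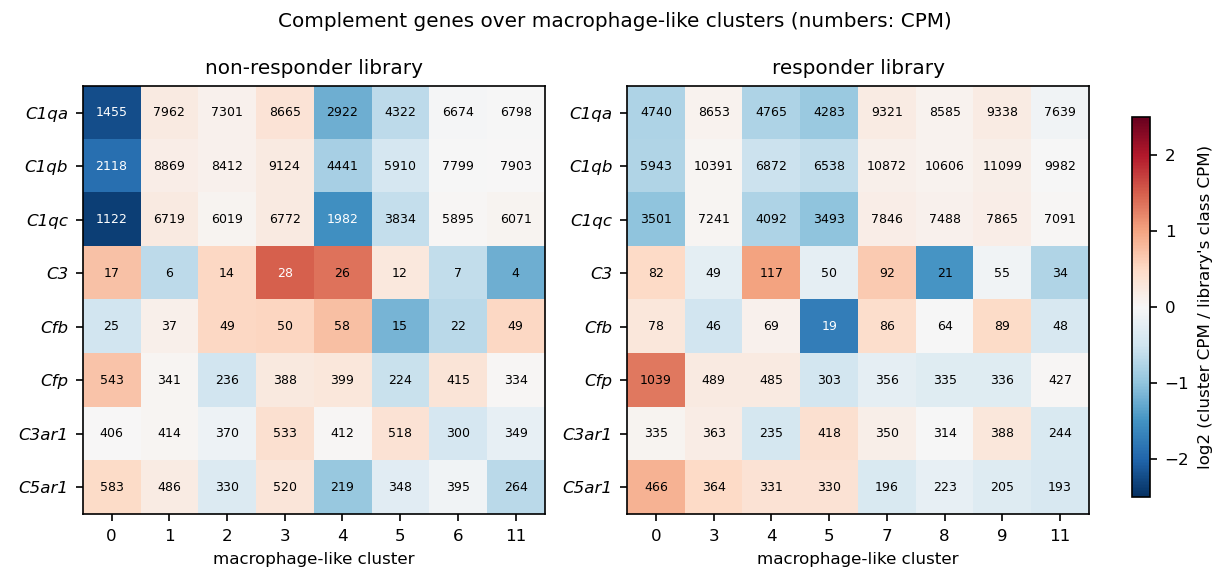
CPM of each complement gene except C2 (rows, printed in the cells) in the macrophage-like clusters with at least 20 cells (columns), for each library; colour is the log2 of the cluster's CPM over the CPM of the whole class in that library. The C1q rows are lowest in clusters 0, 4 and 5, Cfp and C5ar1 are highest in cluster 0, and C3 of the responder library is highest in cluster 4 and lowest in cluster 8.

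Within the 5 shared clusters the C1q ratios were uneven as well. They were largest in cluster 0, at 1.70 for C1qa, 1.49 for C1qb and 1.64 for C1qc, followed by cluster 4, at 0.71, 0.63 and 1.05, and all 3 were 0.17 to 0.34 in cluster 11. In cluster 3 C1qa was at -0.0020 [-0.04 to 0.04], C1qb at 0.19 and C1qc at 0.10. In cluster 5 C1qa was at -0.01 [-0.10 to 0.07] and C1qb at 0.15, and C1qc was lower in the responder library, at -0.13 [-0.23 to -0.04]. With the 5 clusters weighted equally the ratios were 0.51 for C1qa, 0.56 for C1qb and 0.57 for C1qc, over 1.5 times those of the whole class.

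Of the 3 clusters low in C1q, 0 and 4 had high monocyte markers, and cluster 5 did not. Neutrophil markers were high only in cluster 0 of the non-responder library. In cluster 0 of the non-responder library all 7 neutrophil markers had counts and summed to 1493 CPM, with S100a8 at 887 CPM, Ly6g at 11 counts and Cxcr2 at 3 counts. The sum was 49.1 CPM in the responder cells of cluster 0, where S100a8, S100a9, Cxcr2, Ly6g and Retnlg were at 0, and 11.5 to 75.0 CPM in the other clusters. Monocyte markers summed to 4704 and 6454 CPM in cluster 0 and to 9428 and 2475 CPM in cluster 4, against 363 to 1201 CPM in the other clusters. In cluster 5 the monocyte sums were 363 and 552 CPM and the neutrophil sums 65.0 and 11.5 CPM. The part of either list in the C1q values was not tested. Without cluster 0, the C1qb ratio was 0.30, and C1qa and C1qc also stayed above 0.

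Cells with few C1q UMIs were most frequent in clusters 0 and 4. After thinning, 174 non-responder cells (7.39% [6.37-8.52]) and 145 responder cells (3.57% [3.02-4.19]) held 10 C1q UMIs or fewer. Of these, 111 of the non-responder cells were in cluster 0 and 29 in cluster 5, and 113 of the responder cells were in cluster 4. Such cells made up 69.4% of 160 non-responder and 37.1% of 35 responder cells of cluster 0. In cluster 4 they were 38.1% of 21 and 19.0% of 596 cells. In cluster 5 of the non-responder library they were 7.23% of 401 cells, near the share of the whole class. No C1q UMI at all was found in 30 (1.27% [0.861-1.81]) and 14 (0.345% [0.189-0.578]) cells. The limit of 10 cuts a continuous range, since 179 and 125 cells held 11 to 30 UMIs.

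The proportions of the 3 chains differed with the C1q level. Over the whole class C1qb made up 38.5% [38.3-38.6] of C1q UMIs in the non-responder and 39.9% [39.8-40.0] in the responder library. In the 6 combinations of library and cluster with under 16000 CPM of C1q, the C1qb share was 41.9% to 47.5%. In the 10 with over 20000 CPM it was 37.1% to 40.4%, so the ranges did not overlap. C1qc had the opposite order, with 21.2% to 27.3% against 27.5% to 29.2%, ranges that nearly touch. Both limits lie in a gap of these same values, from 15729 to 20368 CPM. The 6 combinations were clusters 0, 4 and 5, each in both libraries. Single cells sorted by their thinned C1q count gave a like picture for C1qb but not for C1qc. The C1qb share was 44.8% [40.2-49.4] and 49.0% [44.4-53.5] in cells with 1 to 10 C1q UMIs. Cells with 11 to 30 C1q UMIs had a C1qb share of 47.1% [45.5-48.7] and 50.2% [48.3-52.1], and those with 91 or more had 37.4% [36.8-38.0] and 39.4% [39.1-39.7]. For C1qc the shares in these 3 groups were 29.3%, 24.3% and 27.6% in the non-responder library. They were 26.7%, 25.8% and 27.1% in the responder library. C1qa had 25.9% and 24.4% in cells with 1 to 10 UMIs, and 35.0% and 33.4% in those with 91 or more. Dendritic-like cells had 43.5% [41.2-45.8] and 52.2% [47.6-56.8], whereas T cell-like cells had 37.0% [30.4-43.9] and 39.4% [35.1-43.8]. The C1qb share of T cell-like cells was within counting error of that of the macrophage-like class of the same library, and the share of dendritic-like cells was not. The T cell-like intervals are wide. That of the non-responder library, from 211 C1q UMIs, also includes the dendritic-like 43.5% and the 42.0% of cluster 5 there. That of the responder library also includes the 41.9% of cluster 0 there.

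**Figure D3:**
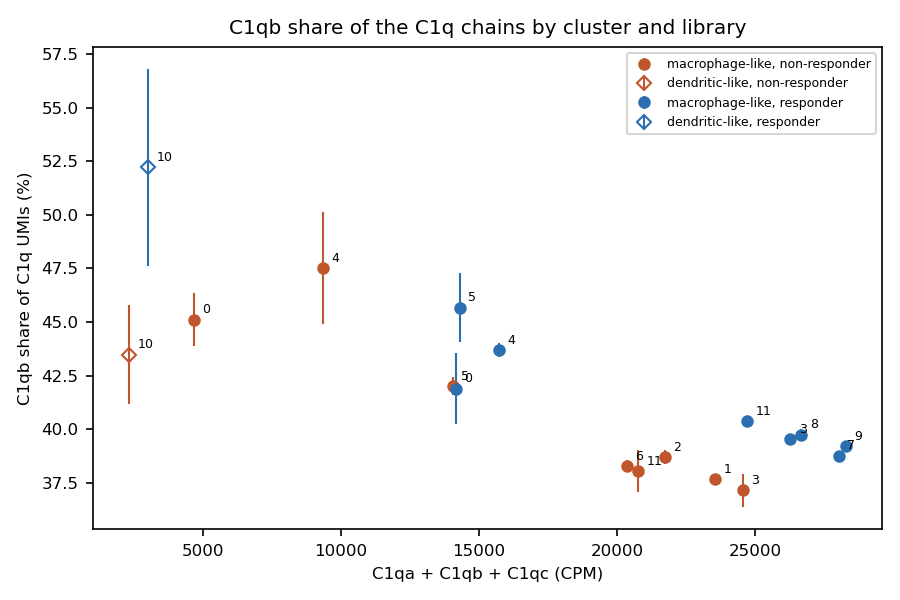
Share of C1qb among the UMIs of the 3 C1q chains (percent, with 95% exact binomial intervals) against their summed CPM, for each cluster (numbered) and library; filled circles are macrophage-like clusters, open diamonds the dendritic-like cluster. The 6 macrophage-like points under 16000 CPM lie between 41.9% and 47.5% and the 10 over 20000 CPM between 37.1% and 40.4%.

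C2, the protease of the classical pathway, was barely detected. Macrophage-like cells held 28 counts in the non-responder library (0.952 CPM) and 70 in the responder library (1.62 CPM), a log2 ratio of 0.77 [0.12-1.46]. A UMI was seen in 0.976% and 1.01% of the cells, or in 0.297% [0.120-0.612] and 0.419% [0.244-0.669] after thinning. No C2 count was found in T cell-like, dendritic-like or fibroblast-like cells of either library, where 3 counts would be 3.75 to 19.2 CPM, above the macrophage-like level. C2 and Cfb share exonic bases with Gm20547, an annotated gene on the same strand that spans both (42.8% of the exonic bases of C2 and 79.5% of those of Cfb). Gm20547 had 0 counts in both libraries, and how reads of shared bases were counted was not given, so both levels are uncertain in this respect. Of the last 500 exonic bases, where a 3' assay mostly reads, Gm20547 covers 6.20% in C2 and 77.6% in Cfb.

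C3, the central component that both pathways cleave, differed most between the libraries. Macrophage-like cells held it at 10.0 CPM (295 counts) in the non-responder and at 58.3 CPM (2513 counts) in the responder library. The ratio was 5.81-fold, or 2.54 [2.36-2.72] on the log2 scale, and was above that of 99.5% of the genes measured. A C3 UMI was seen in 3.65% [2.93-4.49] of non-responder and 14.6% [13.6-15.7] of responder cells after thinning, and in 9.38% and 32.3% of unthinned cells. In T cell-like cells a C3 UMI was seen in 0 of 65 and 0 of 76 thinned cells, where 3 cells would be 4.62% and 3.95% and the exact upper bounds are 5.52% and 4.74%. Their median depths were 5031 and 3718 UMIs, against 11946.5 and 10074 in macrophage-like cells.

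C3 was higher in the responder library in each of the 5 shared clusters. The log2 ratio was 2.30 [1.35-3.24] in cluster 0, 0.78 [0.09-1.58] in cluster 3, 2.18 [0.82-4.06] in cluster 4, 2.05 in cluster 5 and 3.01 [1.14-6.06] in cluster 11. The non-responder side of clusters 4 and 11 rested on 4 and 2 counts. Among responder clusters, C3 was highest in cluster 4 at 117 CPM [108-127], followed by cluster 7, led by Ccl8, Ccl5 and Il18bp, at 91.9 CPM [84.9-99.4]. It was lowest in cluster 8, led by Gbp2b, Cd300e and Clec4b1, at 20.9 CPM [17.3-25.0]. In the non-responder library it ran from 4.28 CPM in the dividing cells of cluster 11 (2 counts) to 28.4 CPM [16.6-45.5] in cluster 3. By these values every responder cluster except cluster 8 was above every non-responder cluster. Counting error leaves this order open, since the interval of non-responder cluster 3 (17 counts) includes responder cluster 11, at 34.4 CPM [30.7-38.4]. How many other genes have such an order was not counted.

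Factor B was also higher in the responder library. Cfb stood at 34.5 CPM (1014 counts) and 63.8 CPM (2751 counts), a log2 ratio of 0.89 [0.78-0.99], and after thinning a UMI was seen in 9.90% [8.72-11.2] and 17.3% [16.1-18.5] of cells. Unthinned, the shares were 27.9% and 42.5%. In the responder library Cfb was highest in cluster 9 at 89.2 CPM [81.9-97.1] and cluster 7 at 86.4 CPM [79.5-93.6], both almost entirely of that library, and lowest in cluster 5 at 19.2 CPM (5 counts). Cluster 5 was also the lowest in the non-responder library, at 15.4 CPM [11.8-19.6]. Within the shared clusters the log2 ratio was 1.64 [0.75-2.50] in cluster 0, but -0.14 [-0.67 to 0.45] in cluster 3 and 0.25 [-0.69 to 1.39] in cluster 4. It was 0.32 in cluster 5 and -0.02 [-0.63 to 0.65] in cluster 11. The Cfb difference of the class was thus not seen in clusters 3 and 11, the shared clusters with the most responder cells.

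Properdin showed a small difference in the same direction. Cfp stood at 330 CPM and 416 CPM, a log2 ratio of 0.34 [0.30-0.37], and was higher in the responder library in all 5 shared clusters, by 0.28 to 0.94 on the log2 scale. The lowest of these, in cluster 4, had an interval that included 0 [-0.08 to 0.67]. Both libraries had their highest macrophage-like level in cluster 0, at 543 CPM and 1039 CPM, and their lowest in cluster 5, at 224 and 303 CPM.

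The 2 receptors were lower in the responder library. C3ar1, the receptor of C3a, stood at 402 CPM in the non-responder and 318 CPM in the responder library, a log2 ratio of -0.34 [-0.37 to -0.30]. It was lower in all 5 shared clusters, from -0.27 in cluster 0, where the interval included 0 [-0.63 to 0.06], to -0.81 in cluster 4. Its highest and lowest clusters differed 1.78-fold in either library, the smallest such fold of the 9 genes. C5ar1, the receptor of C5a, stood at 421 and 256 CPM, a log2 ratio of -0.72 [-0.76 to -0.68], or 1.65-fold lower. After thinning, C5ar1 was seen in 60.0% [58.0-62.0] and 47.8% [46.2-49.3] of cells, and unthinned in 85.9% and 78.7%. It was highest in cluster 0 in both libraries, at 583 and 466 CPM. The ratio within shared clusters was -0.32 in cluster 0, -0.52 in cluster 3, -0.08 in cluster 5 and -0.45 in cluster 11, but 0.60 [0.11-1.13] in cluster 4, where the non-responder side rested on 34 counts.

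Read together, 4 of the 9 genes differed by more than 1.5-fold between the libraries in macrophage-like cells, where 19.5% of 10855 genes with at least 50 counts did so. C2, C3 and Cfb were higher in the responder library, as were 8.08% of all genes, and C5ar1 was lower, as were 11.4%. The call of C2 rests on 28 and 70 counts, and its log2 interval [0.12-1.46] includes ratios under 1.5-fold. The median log2 ratio of the 9 genes was 0.34, beside -0.09 over all genes. Of the 9 genes, 7 were above 0, as were 4386 of the 10855 genes. The 7 included the 3 C1q chains, which varied together from cell to cell. At 2-fold, C3 alone passed (1 of 9), where 7.87% of all genes did, 3.47% higher and 4.39% lower. At 1.5-fold the count was also 1, C3 alone of the 8 genes with a value, when the 5 shared clusters were weighted equally, with C3 at 2.07, Cfb at 0.41 and C5ar1 at -0.15. In that comparison 17.2% of 8482 genes passed 1.5-fold and 8.78% were higher in the responder library. C2 had too few counts for a value there.

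**Figure D4:**
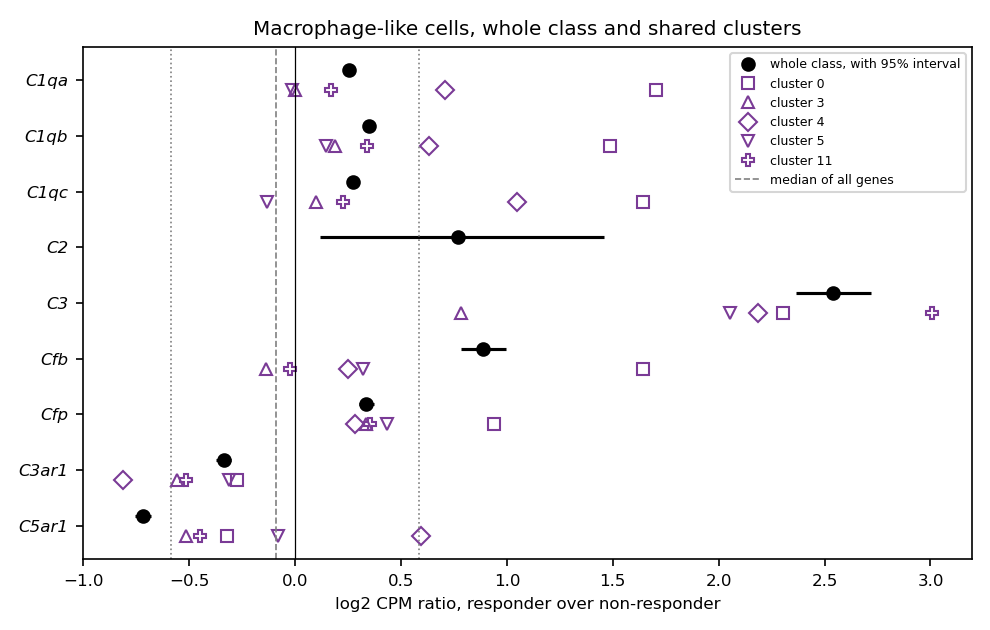
Log2 ratio of CPM, responder over non-responder, in the whole macrophage-like class (black, with 95% counting intervals) and in the 5 clusters with at least 20 cells of each library (purple); dotted lines mark 1.5-fold and the dashed line the median of all genes (-0.09). C3 lies to the right of 1.5-fold in the class and in every shared cluster, while Cfb and C5ar1 differ less within clusters 3, 5 and 11 than in the class; C2 has no cluster points because of its few counts.

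From cell to cell, the 3 C1q chains varied together and the other 6 genes had correlations near 0 with them and with each other. Over thinned macrophage-like cells of 1 library (2354 and 4062 cells, which share that library and a fixed depth), Pearson correlations of log counts among the C1q chains were 0.86 to 0.87 in the non-responder and 0.82 to 0.83 in the responder library. Taken within clusters they were 0.75 to 0.77 and 0.74 to 0.77, so the chains also varied together inside clusters. C5ar1 and Cfp had 0.16 and 0.11, and C3ar1 and C5ar1 had 0.10 and 0.04. All other pairs were between -0.09 and 0.10. In counts this sparse such values are no evidence of a link, and C2 and C3 were too rare for any. A cell with a C3 UMI and a Cfb UMI was seen at 0.595% in the non-responder and 3.03% in the responder library, where the product of the single shares is 0.362% and 2.53%.

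**Figure D5:**
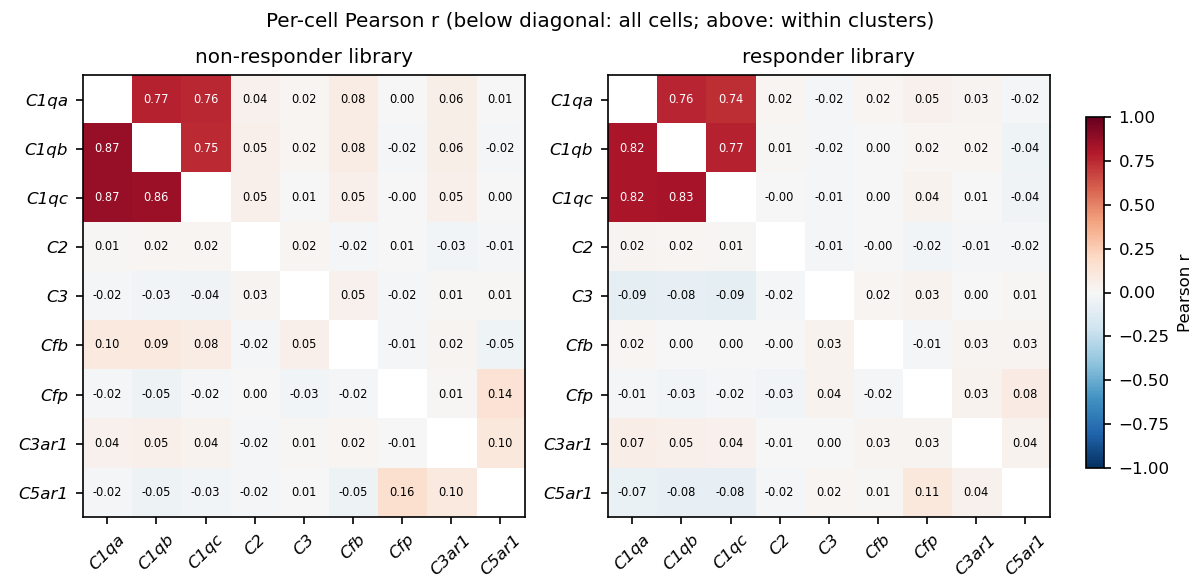
Pearson correlation of log thinned counts between each pair of complement genes over macrophage-like cells, in each library; values under the diagonal use all cells, values over it deviations from the cluster mean. Only the block of C1qa, C1qb and C1qc stands out, at 0.82 to 0.87 over all cells and 0.74 to 0.77 within clusters.

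Among 2494 other genes, the genes most like each complement gene were ranked by the lower of the correlations in the 2 libraries. All 3 C1q chains had Ms4a7, a macrophage membrane protein, first (0.45 to 0.49 in the non-responder and 0.37 to 0.42 in the responder library) and the tetraspanin gene Cd81 second. Grn, which encodes progranulin, was also among the first 5 of each chain. C3 was most like the chemokine gene Ccl5 (0.18 and 0.29), and Cfb most like Irf7 (0.15 and 0.13), which encodes an interferon-regulated transcription factor, followed by B2m, Ms4a4c, Ctss and H2-K1. C3ar1 was most like the lysosomal protease gene Lgmn (0.17 and 0.14) and Ms4a7. C5ar1 had AA467197, the glycolytic gene Pkm, Capg, Ldha and Arg1 (0.14 to 0.21), and Cfp had Arg1, Capg, S100a10, AA467197 and Ctsl. C2 reached at most 0.06 with its 5 genes. Values this low outside C1q are descriptions of order only.

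Splitting macrophage-like cells by a UMI of a state gene, which does not use the clusters, gave opposite patterns for C1qb and C3 with Ly6c2 and with Fcrls, though not with every state gene. In cells with a UMI of Ly6c2, a gene of inflammatory monocytes, C1qb was 3665 against 8007 CPM in the non-responder (log2 -1.13) and 7064 against 10390 CPM in the responder library (-0.56). C3 was higher in these cells, by 1.67 [0.85-2.42] and 0.93 [0.66-1.20]. In cells with a UMI of Fcrls, a gene of resident-type macrophages, C1qb was higher by 0.48 and 0.16, and C3 was lower, at -1.26 [-1.88 to -0.66] and -1.06 [-1.43 to -0.71]. These 4 contrasts had the same direction in both libraries. With Ccl8, a chemokine gene, both values were above 0: C1qb was at 0.22 and 0.15, and C3 at 0.27 [-1.09 to 1.37] and 0.09 [-0.17 to 0.36].

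The other complement genes also differed with state genes. C5ar1 was higher in cells with a UMI of Arg1, the arginine-degrading enzyme, by 0.41 [0.30-0.51] and 0.49 [0.38-0.59], and in cells with Spp1, which encodes osteopontin, by 0.45 and 0.33. It was also higher in cells with Ly6c2, by 0.39 [0.20-0.58] and 0.32 [0.17-0.47], and in cells with Fcrls, by 0.14 and 0.19. Cfp was higher in cells with Arg1, by 0.36 and 0.34. In cells with Cxcl9, an interferon-gamma-induced chemokine, C3 was higher by 1.63 [0.81-2.39] in the non-responder and 0.32 [0.11-0.53] in the responder library, and C1qb was also higher, by 0.20 and 0.08. Cells with Nos2, which makes nitric oxide, had less C1qb in both libraries, at -0.39 and -0.32. C3ar1 was higher in cells with the interferon-induced gene Rsad2, by 0.52 [0.38-0.65] and 0.23 [0.10-0.36], while C5ar1 was lower in them, at -0.43 and -0.22.

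Of 46 other complement genes, 45 had an entry in the files and 16 had at least 50 counts in macrophage-like cells. Their median log2 ratio was -0.03, with 3 higher and 5 lower by more than 1.5-fold, beside 8.08% and 11.4% of all genes. The largest ratios were those of C4b, a classical pathway component cleaved before C2, at 6.09 and 15.9 CPM (1.39), the integrin chain gene Itgax at 50.4 and 86.9 CPM (0.79), and the C1 protease gene C1ra at 2.89 and 4.94 CPM (0.77). Among the lowest were those of the ficolin gene Fcna, at 6.22 and 0.696 CPM (-3.16), and Cd59a, an inhibitor of the membrane attack complex, at 3.98 and 2.16 CPM (-0.88). C5ar2, another C5a receptor, was at 12.1 and 7.33 CPM (-0.72), a ratio like that of C5ar1. Hc, which encodes C5, and the terminal genes C7, C8a and C8b had no count in macrophage-like cells of either library. C6 and C9 had at most 2 counts in a library, beside 355 and 316 counts of C5ar2. C8g was the 1 terminal gene with enough counts to compare, at 1.39 CPM (41 counts) and 1.76 CPM (76 counts), a log2 ratio of 0.34 [-0.23 to 0.92].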

How the data were processed

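Single-cell libraries of tumour CD45+ cells were made with the 10x Genomics 3' v3 kit, per the labels' protocols. The authors deposited filtered matrices whose values are whole-number UMI counts per gene and barcode. The submitters' processing notes list Cell Ranger 1.1.0, mm10 and GRCm38. The annotation release and the cell-calling rule are not given in the sources used here. Totals were 32032569 UMIs over 2580 barcodes (non-responder) and 45866561 over 4425 (responder). The cell filter removed 4 barcodes with under 500 genes and 61 with over 10% mitochondrial UMIs. Scrublet in scanpy 1.11.5 marked 3 of 7005 barcodes, so doublets were in effect not removed.

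Counts were scaled to 10000 per cell and logged. Cells of both libraries were clustered together, without batch correction and with all complement genes left out of the 2000 variable genes (30 components, 15 neighbours, Leiden resolution 1). Clusters were named from marker lists: a marker counted at 50 CPM and in 10% of cells, and 75% of macrophage markers or 50% of T cell or NK markers were needed. Dendritic-like and fibroblast-like clusters needed 3 markers among their 10 leading genes, and clusters meeting the macrophage and T cell limits were called mixed. The rule for scoring markers was chosen with the data in view. Leading genes of each macrophage-like cluster were checked for an excess of another class's markers over its own: none had one against clusters outside the class, and clusters 7 and 8 had one against all other clusters.

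Counts were summed per class or cluster and library. CPM has exact Poisson intervals, shares have exact Clopper-Pearson intervals and log2 ratios conditional exact binomial intervals. With 1 library per group no test was made. A gene was compared at 50 or more counts in both libraries together, and called past 1.5-fold. For shares and correlations, cells were thinned to 3000 UMIs, which left out 2 non-responder and 87 responder macrophage-like cells. Scripts were tested on simulated counts. Alternatives covered cell filters, scaling (TMM of edgeR 4.0.16), thinning, weights, clustering, doublet scores, dividing cells, thresholds and correlation measures.

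The 9 genes, the other lists and the state genes were chosen with earlier results of these data known. All 9 were named, with the 3 largest ratios in each direction among other complement genes and the 5 most like genes for each. The values of 1 of these named genes are not reported here. C5ar2, Hc and the terminal genes were named after their values were seen. Coordinates came from GENCODE M21, where 27645 of the 27998 identifiers were found.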

Additional observations from a re-analysis of the deposited data

How the results depend on the processing

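The count of 4 genes past 1.5-fold fell to 1 at a limit of 2-fold, where 7.87% of all genes passed, and to 1 with shared clusters weighted equally. It was 3 or 4 under the other alternatives. The median log2 ratio ran from 0.30 to 0.49. TMM scaling shifted all ratios by 0.12. All 9 ratios kept their sign under every alternative that gave a value, among them leaving out cluster 0, or clusters 7 and 8, which were chosen after seeing the data. C1qa ran from 0.19 to 0.51, C1qb from 0.30 to 0.56 and C1qc from 0.22 to 0.57, each highest with shared clusters weighted equally. C3 ran from 2.07 to 2.66, Cfb from 0.41 to 1.01, C2 from 0.49 to 0.89 (12 alternatives, none with shared clusters) and C5ar1 from -0.72 to -0.15. With 28 and 70 counts, C2 was limited by depth. The correlation of C1qa and C1qb was 0.90 and 0.85 at 5000 UMIs, and 0.70 and 0.59 by Spearman. No paired analysis was possible because each group held 1 library.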
